A study of Rattus norvegicus with 9 samples.

Results

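The set described here is the cholinesterase and acetylcholine receptor genes: the enzymes Bche and Ache, the muscarinic receptors Chrm1, Chrm2, Chrm3 and Chrm4, and the nicotinic subunits Chrna4, Chrna7 and Chrnb2. They were taken by gene symbol, 9 of the 37991 genes in the count table, and all 9 passed the filter on low counts. The 9 genes are a chosen part of their family. The set was drawn up after an earlier analysis of these libraries had shown Bche lower in Ketamine than in Control. The differences of the 9 genes are therefore given as a description, with intervals and no p-value. Where a member met the rule for calling a gene, this is stated as part of that description and supports nothing further.

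RNA was sequenced from medial prefrontal cortex. The rats were Wistar Kyoto, an inbred strain studied for its depression-like behaviour, with 3 libraries in each of 3 groups. Control rats had no treatment. K4 rats received K4, known here by its code alone, for 7 days into a vein by cannula, and Ketamine rats received ketamine, an NMDA receptor antagonist, for 7 days under the skin. Both drugs were then stopped for 7 days, and tissue of every group is labelled day 15. The labels give no dose, vehicle, age or sex, so the drug cannot be told apart from its route, from cannulation or from handling. They also do not say that each library came from its own animal, so intervals and p-values cover only the spread between these libraries, which may be technical. In bulk tissue, fewer cells of a type and less RNA per cell cannot be told apart.

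Acetylcholine reaches the prefrontal cortex mainly along axons of basal forebrain neurons. Acetylcholinesterase, encoded by Ache, splits it rapidly at the synapse, and butyrylcholinesterase, encoded by Bche, is a related esterase with broader substrates that in brain is found in glia and in some neurons. Muscarinic receptors are G protein coupled: Chrm1 and Chrm3 act through Gq and phospholipase C, and Chrm2 and Chrm4 through Gi, which inhibits adenylyl cyclase. Nicotinic receptors are ligand-gated cation channels, of which the heteromer of Chrna4 and Chrnb2 products and the Chrna7 homomer are the main cortical types.

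Because Bche is the gene from which the set was built, its upstream sequence is shown. It is the 250 bases before the annotated start in RefSeq, build GRCr8, chr2:160699761-160700010, minus strand, written 5′ to 3′. The deposited files give no coordinates and were made on build rn6, so the position is that of the reference only.
Bche: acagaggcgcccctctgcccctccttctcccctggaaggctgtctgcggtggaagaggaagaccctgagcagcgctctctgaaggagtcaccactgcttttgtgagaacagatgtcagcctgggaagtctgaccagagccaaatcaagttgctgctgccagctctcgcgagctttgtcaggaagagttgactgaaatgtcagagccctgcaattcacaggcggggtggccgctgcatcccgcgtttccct
This stretch was 58.4% G or C with 9 CpG dinucleotides, against medians of 51.2% and 5 over 33469 promoters of the same length. Motifs were searched by their letters on both strands. The GC box GGGCGG was present upstream of 7 of the 9 genes, all but Bche and Chrm1, and of 30.5% of all promoters. The E-box CACGTG was present for Ache and Chrna7, and for 5.59% of promoters. The cAMP response element core TGACG was found for Ache, Chrm1 and Chrm3 (18.2% of promoters). The letters CCAAT were found for Chrm4 alone among the 9 (34% of promoters). The TATA motif TATAAA was found for 0 of the 9 (12.9% of promoters). Upstream of Bche none of these motifs was found, so no letter of its sequence is in capitals. All 9 genes matched the RefSeq promoter table, and these matches describe letters, not binding.

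Library totals ranged from 27122207 to 33837450 counts in the drug groups and from 40863756 to 42731004 in Control. The share of counts on 13 genes of the mitochondrial genome averaged 15.1% ± 3.68 among Control libraries (SD, n = 3), against 10.8% ± 0.518 for K4 and 11.4% ± 0.652 for Ketamine, and was 19.0% in Control 2. Control 2 had the lowest TPM (a level corrected for transcript length) of all 9 libraries for 8 of the 9 members, all but Bche. The part that this library composition has in the differences below was not tested. For the members, values without Control 2 are given where its removal changes a call. Counts also leaned toward longer transcripts in Control than in the drug groups, and a fit with an offset for length was run.

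Transcript levels spanned a wide range among the 9 genes. On the TPM scale, Chrm1 was highest at 87.2 ± 12.2 (SD over 9 libraries) and Bche lowest at 2.64 ± 1.09. Chrnb2 (29.7 ± 4.72), Chrna4 (26.8 ± 5.87), Ache (23.2 ± 4.06), Chrm3 (22.5 ± 3.38) and Chrm4 (21.7 ± 2.60) lay in between, followed by Chrna7 (13.4 ± 1.73) and Chrm2 (6.85 ± 1.31). Chrm1, Chrm4, Chrna7 and Chrm2 each exceeded the next gene of this order in 9 of 9 libraries, and Chrnb2 and Chrna4 did so in 8 of 9. Ache, Chrm3 and Chrm4 did not differ beyond their spread, as Ache exceeded Chrm3 in 4 of 9 libraries and Chrm3 exceeded Chrm4 in 5 of 9.

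**Figure D1:**
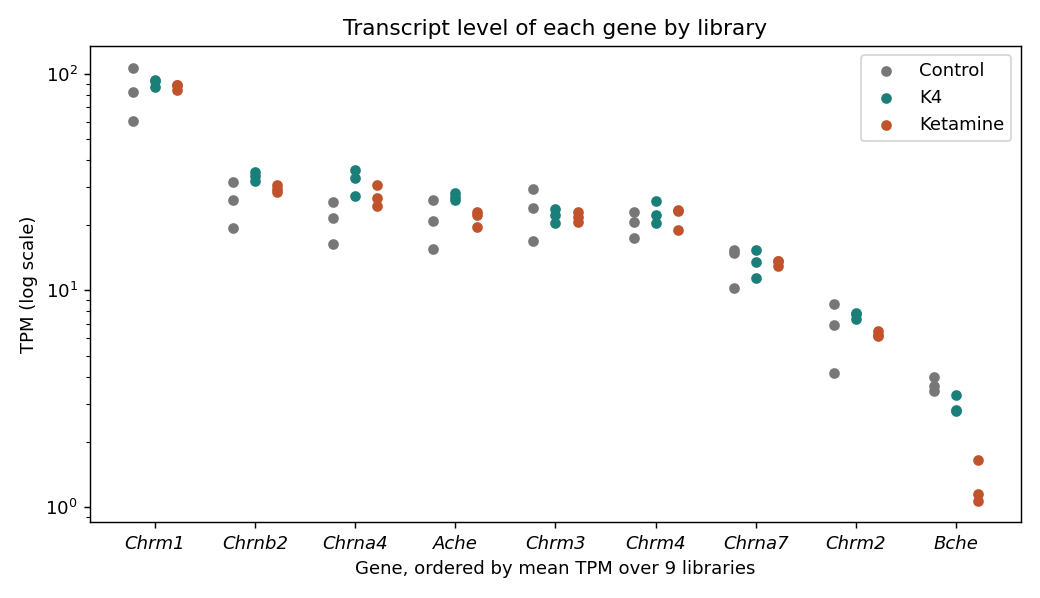
Each point is the TPM of 1 gene in 1 library on a log axis, coloured by group, with genes ordered by their mean over 9 libraries. Chrm1 stands above all other genes, and Bche is lowest, with Ketamine at 1.07 to 1.65 TPM below the other groups.

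Bche (gene ID 65036) was lower in Ketamine than in either other group and intermediate in K4. Its normalised read counts, in CPM (counts scaled to library size by TMM), were 3.60, 4.63 and 3.14 in Control 1 to 3, 2.49, 3.06 and 2.43 with K4, and 1.01, 1.53 and 1.10 with Ketamine. Every Control library lay above every K4 library, and every K4 library lay above every Ketamine library. Group means were 3.79 ± 0.761, 2.66 ± 0.344 and 1.21 ± 0.279 CPM (SD, n = 3 each). These rest on few reads, 127 to 178 counts per library in Control, 72 to 100 in K4 and 33 to 43 in Ketamine. The deposited TPM gave the same order of groups, 3.43 to 3.99, 2.76 to 3.27 and 1.07 to 1.65.

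The fitted log2 difference in Bche was −1.65 for Ketamine against Control (SE 0.22, 95% interval −2.13 to −1.16), or 3.14-fold lower. For K4 against Control it was −0.51 (SE 0.21, −0.96 to −0.06). Between the drugs, K4 stood above Ketamine by 1.14 (SE 0.23, 0.64 to 1.64). That comparison shares no Control library but reuses the Ketamine libraries from which Bche was chosen, so it is no separate evidence. Over 19 alternative analyses the log2 difference ranged from −1.84 to −1.04 for Ketamine against Control and from −0.62 to −0.25 for K4 against Control. In both, the value nearest 0 came from TPM with a pseudocount of 1, which shrinks differences of low genes. K4 against Ketamine ranged from 0.79 to 1.33.

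Ache (83817) had a different pattern. Its CPM was 22.9, 19.7 and 26.1 in Control, 27.1, 26.9 and 26.0 with K4, and 20.1, 22.9 and 23.1 with Ketamine. K4 lay above Ketamine without overlap, while Control covered the Ketamine range and reached into that of K4. The log2 difference was 0.22 for K4 against Control (SE 0.099, interval 0.01 to 0.43), −0.05 for Ketamine against Control (−0.27 to 0.16) and 0.27 for K4 against Ketamine (0.06 to 0.49). In GRCr8 the Ache locus overlaps Ufsp1, a gene at 13.1 TPM here, and as the strand setting of the counting is not given, reads of both may be mixed.

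The balance of the enzymes, on the TPM scale, combines these values. Bche was 15.6% ± 4.49 of the summed cholinesterase TPM in Control, 9.83% ± 1.11 in K4 and 5.58% ± 0.966 in Ketamine (SD, n = 3). The ratio of Ache to Bche was 5.81, 3.89 and 7.61 in Control, 10.003, 8.01 and 9.77 with K4, and 18.4, 13.9 and 19.4 with Ketamine. Its groups did not overlap, and as the ratio contains Bche it is no separate evidence.

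**Figure D2:**
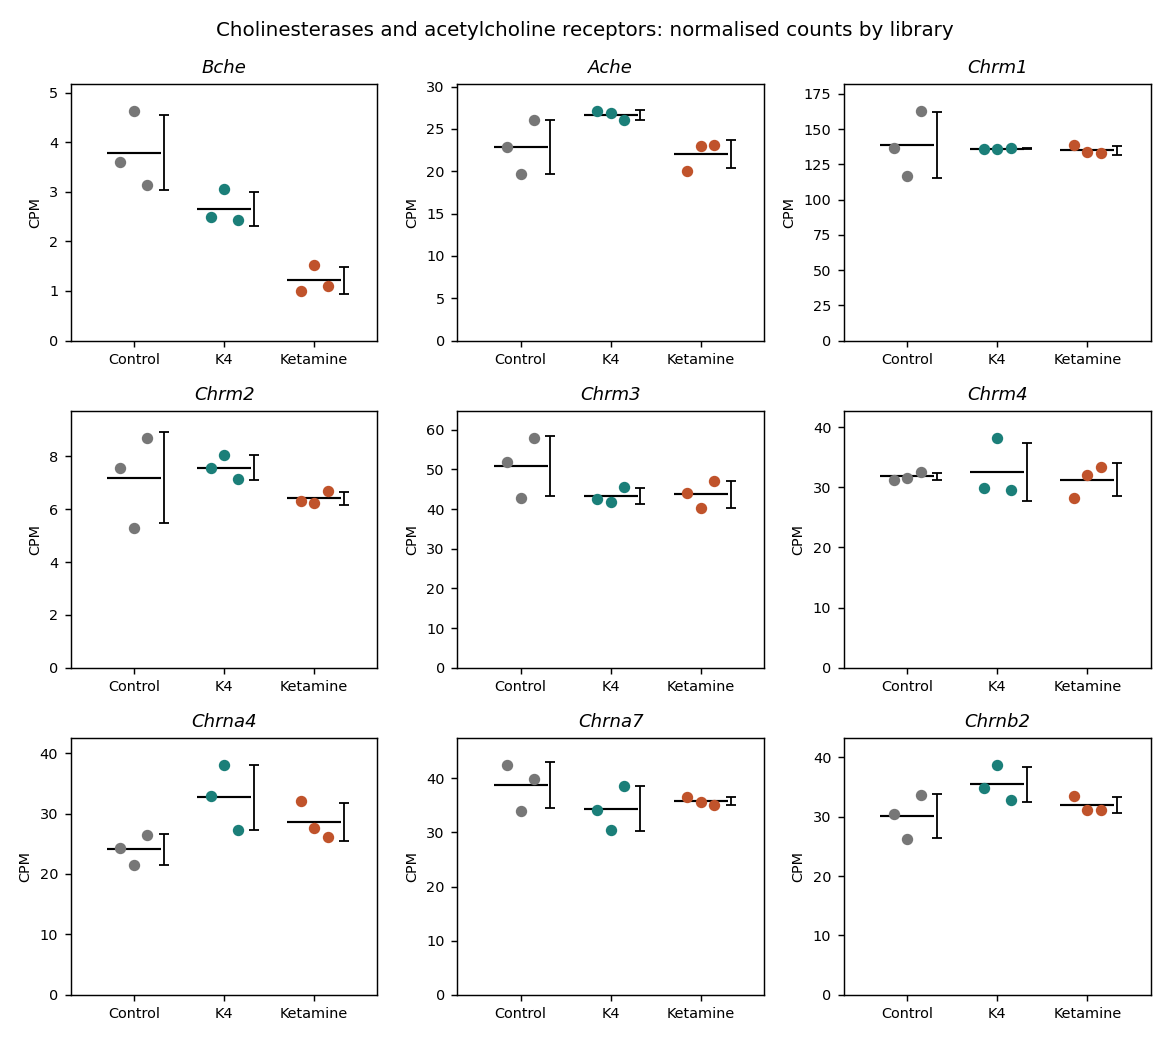
Each panel gives 1 gene, with CPM on an axis from 0, a point per library, a line at the group mean and a bar of 1 SD on either side (n = 3). Bche falls into separate group ranges (3.14 to 4.63, 2.43 to 3.06 and 1.01 to 1.53 CPM), while most receptor genes overlap between groups.

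Members of several cell marker lists were lower alongside Bche in Ketamine. The lists were drawn up with earlier results of these data known, so their counts are a description. By edgeR's quasi-likelihood test with Benjamini-Hochberg adjustment, 7 of 12 astrocyte markers, 7 of 10 oligodendrocyte precursor markers, 4 of 10 endothelial, 3 of 8 mural, 4 of 10 microglial and 3 of 6 upper-layer excitatory markers were lower in Ketamine than in Control, where 9.75% of 18047 genes were lower. In K4 the counts were 3, 3, 2, 2, 1 and 2, where 3.8% of genes were lower. Some markers of these lists went the other way in Ketamine, with positive log2 differences for 2, 1, 0, 3, 4 and 2 of them. Of these, 1 upper-layer marker was called higher, where 6.95% of all genes were. For oligodendrocyte markers 9 of 10 log2 differences were negative in Ketamine (1 called lower). In K4, 9 of the 10 were positive (1 called higher). Summed TPM of the astrocyte list was 3075 to 3744 in Control, 2772 to 2997 in K4 and 2527 to 2616 in Ketamine, and that of the precursor list 256 to 287, 215 to 235 and 181 to 204. For endothelial markers the sums were 216 to 249, 216 to 248 and 166 to 202, for mural markers 166 to 195, 132 to 173 and 105 to 174, for microglial markers 456 to 504, 499 to 509 and 454 to 492, and for upper-layer markers 277 to 391, 310 to 356 and 343 to 385. The last 2 sums overlapped between Control and Ketamine, as did the mural sum. Other lists leaned the other way in Ketamine: all 6 pan-neuronal markers had positive log2 differences (2 called higher), as did 7 of 8 meningeal fibroblast markers (median 0.67, 0 called). No marker of these lists was at 0, and their part in the Bche difference was not tested.

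Genes whose 9 libraries followed Bche most closely were found by the root mean square difference of log2 CPM, each relative to its Control mean. Over 15389 genes the median difference was 0.996. Among the nearest were Cep295nl (0.284), Nfia (0.288), a transcription factor of glial development, Rgs5 (0.304), a G protein regulator of pericytes, and Ntsr1 (0.306), a neurotensin receptor. In Control, K4 and Ketamine, Nfia ranged from 14.4 to 22.4, 9.49 to 12.7 and 6.83 to 8.13 CPM. As with Bche, the groups of Nfia did not overlap. This is a description of likeness over 9 libraries, chosen from these same values.

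The muscarinic receptors differed little between groups. Chrm1 (25229), the main cortical subtype, was at 137, 117 and 163 CPM in Control, 136, 136 and 137 with K4, and 139, 134 and 133 with Ketamine. The drug groups lay inside the Control range, which was much wider. The log2 difference was −0.03 for K4 against Control (−0.23 to 0.17), −0.04 for Ketamine against Control (−0.24 to 0.16) and 0.01 for K4 against Ketamine (−0.19 to 0.21). Its sign against Control depended on the scale: on log2(TPM + 0.1) it was 0.16 for K4 and 0.11 for Ketamine.

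Chrm3 (24260), the other Gq-coupled subtype, had lower means in both drug groups. Its CPM was 51.8, 42.8 and 57.8 in Control, 42.6, 41.9 and 45.5 with K4, and 44.0, 40.2 and 47.0 with Ketamine. Only Control 2 lay among the drug libraries. The log2 difference was −0.23 (−0.44 to −0.02) for K4 and −0.22 (−0.43 to −0.01) for Ketamine, each against the same Control libraries. Neither passed the call rule, an adjusted p below 0.05 over all genes, whereas without Control 2 both did, at −0.34 and −0.32. That fit called 1548 genes for K4 and 3058 for Ketamine, where the fit of all libraries called 1095 and 3013. On log2(TPM + 0.1) the K4 difference was −0.05.

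The Gi-coupled receptors were Chrm2 and Chrm4. Chrm2 (81645) was at 7.56, 5.30 and 8.68 CPM in Control, 7.54, 8.07 and 7.13 with K4, and 6.30, 6.23 and 6.68 with Ketamine. K4 lay above Ketamine without overlap (log2 difference 0.24, −0.10 to 0.59), and Control spanned both. Against Control the values were 0.08 (−0.26 to 0.42) for K4 and −0.17 (−0.51 to 0.18) for Ketamine. Chrm4 (25111) was at 31.3, 31.6 and 32.5 CPM in Control, 29.9, 38.2 and 29.5 with K4, and 28.2, 32.1 and 33.4 with Ketamine. Its groups overlapped, with K4 2 highest, and its log2 differences against Control were 0.03 (−0.18 to 0.24) for K4 and −0.03 (−0.24 to 0.19) for Ketamine. Chrm4 overlaps Mdk, a growth factor gene at 30.3 TPM here, in GRCr8, so its counts are uncertain in the same way as those of Ache.

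Summed over the 4 muscarinic genes, TPM was 134 ± 34.4 in Control, 144 ± 2.00 in K4 and 137 ± 1.63 in Ketamine (SD, n = 3). Chrm1 made up 62.1% ± 1.33, 63.3% ± 1.42 and 63.6% ± 1.97 of it. Chrm3 took 17.5% ± 0.418 in Control, 15.5% ± 0.980 in K4 and 15.9% ± 0.997 in Ketamine, and Control lay above both drug groups in every library. Of the 4 genes Chrm3 has the longest transcript, 4.66 kb as implied by counts and FPKM. The part of the length lean of Control in this share was not tested. Chrm2 took 4.85% ± 0.551, 5.34% ± 0.238 and 4.58% ± 0.121. The Chrm2 share in K4 (5.08% to 5.55%) lay above that in Ketamine (4.49% to 4.71%).

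Among nicotinic subunits, Chrna4 (25590) had the largest difference after K4. Its CPM was 24.3, 21.4 and 26.5 in Control, 32.9, 37.9 and 27.2 with K4, and 32.1, 27.6 and 26.1 with Ketamine. K4 lay above Control without overlap, although K4 3 was close to Control 3, and Ketamine overlapped both. The log2 difference was 0.44 for K4 (SE 0.12, 0.18 to 0.71), 0.25 for Ketamine (−0.02 to 0.51) and 0.19 for K4 against Ketamine (−0.07 to 0.46). The K4 difference did not pass the call rule in edgeR, but did in 6 of 19 alternatives: DESeq2, upper quartile scaling, limma on log2 TPM with either pseudocount, and the fits without Control 3 or without K4 3. The value ranged from 0.32 to 0.61 over the 19. In GRCr8 the locus overlaps Col20a1, at 4.62 TPM here.

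Chrnb2 (54239), the partner of Chrna4 in the high-affinity receptor, was at 30.4, 26.2 and 33.7 CPM in Control, 34.8, 38.6 and 32.9 with K4, and 33.5, 31.2 and 31.2 with Ketamine. K4 1 and K4 2 lay above all Control libraries and K4 3 did not. The log2 difference was 0.24 for K4 (0.04 to 0.43) and 0.09 for Ketamine (−0.11 to 0.28). Without Control 3 the K4 differences of Chrnb2 and Ache passed the call rule, at 0.34 for each. That fit called 1528 genes for K4 against Control, where the fit of all libraries called 1095. The TPM ratio of Chrna4 to Chrnb2 was 0.827 ± 0.0156 in Control, 0.948 ± 0.0831 in K4 and 0.921 ± 0.0647 in Ketamine (SD, n = 3), and both drug groups lay above the Control range of 0.812 to 0.843.

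Chrna7 (25302), which forms fast, calcium-permeable channels, had lower means in both drug groups with overlap. Its CPM was 42.3, 34.0 and 39.9 in Control, 34.2, 30.4 and 38.6 with K4, and 36.5, 35.6 and 35.0 with Ketamine. The log2 difference was −0.17 (−0.38 to 0.03) for K4 and −0.12 (−0.32 to 0.09) for Ketamine. On log2(TPM + 0.1) the K4 value was 0.0036, and with the length offset the Ketamine value was 0.04, so no direction is given. The TPM ratio of Chrna4 to Chrna7 was 1.45, 1.60 and 1.68 in Control, 2.44, 3.16 and 1.79 with K4, and 2.23, 1.96 and 1.88 with Ketamine. All 6 drug libraries lay above the 3 Control libraries in this ratio. Like the ratio of Chrna4 to Chrnb2, it contains Chrna4 and is no separate evidence. The implied transcript lengths were 2.43 kb for Chrna4 and 6.14 kb for Chrna7. Counts leaned toward longer transcripts in Control, and the part of that lean in this ratio was not tested.

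**Figure D3:**
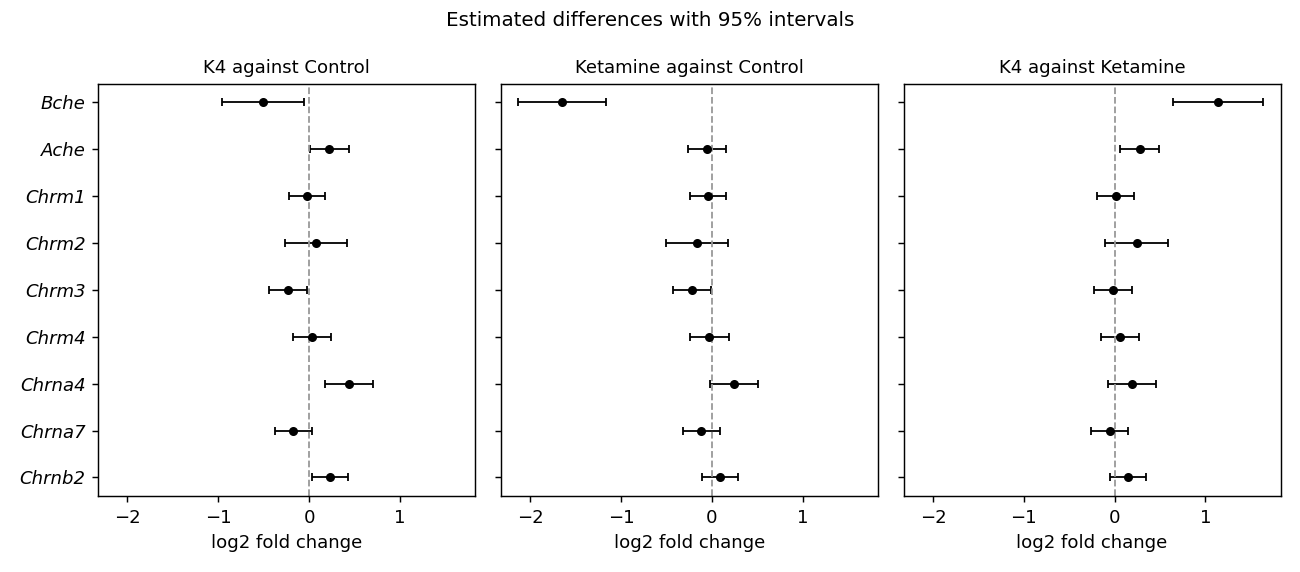
Points are edgeR log2 fold changes of the 9 genes in each comparison, and bars are 95% intervals. Bche lies farthest from 0 in all 3 panels (−0.51, −1.65 and 1.14), and the receptor genes lie between −0.23 and 0.44.

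Calls among the 9 genes are given here beside those over the whole transcriptome. Of 18047 genes tested, 6.07% were called for K4 against Control and 16.7% for Ketamine against Control. For K4 against Control edgeR called 0 of 9 members, with 5 at an unadjusted p below 0.05 (23.5% of all genes), and DESeq2 called Chrna4. For Ketamine against Control edgeR and DESeq2 each called 1 member, Bche, with 2 at an unadjusted p below 0.05 (31.3% of all genes). For K4 against Ketamine edgeR called 0 of 9 members and 0 of all genes (0%), with 2 members at an unadjusted p below 0.05 (9.13% of all genes), and DESeq2 called Bche. Over all genes DESeq2 called 1890, 3587 and 70 in these comparisons, against 1095, 3013 and 0 by edgeR. Group ranges were apart for 2 members in K4 against Control (27.5% of all genes), Chrna4 higher (13.3%) and Bche lower (14.2%). In Ketamine against Control they were apart for 1 member (35% of all genes), with 0 higher (16.9%) and Bche lower (18.1%). In K4 against Ketamine they were apart for 3 (17.8% of all genes), with Bche, Ache and Chrm2 higher (9.49%) and 0 lower (8.29%). Nothing is read from these shares, since the set was chosen with the differences known.

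Beyond the 9 genes, 58 further cholinergic genes were listed and 50 passed the filter. These lists too were drawn up with earlier results of these data known, and some genes are named for their small p. Their counts and adjusted p therefore describe these libraries and are no separate evidence. edgeR called 3 of the 50 higher and 0 lower in K4 against Control, where 2.27% and 3.8% of all genes were called, and 5 higher and 10 lower in Ketamine against Control, where 6.95% and 9.75% were. The median log2 difference of the 50 was 0.04 for K4 and −0.13 for Ketamine, against −0.0046 and −0.0023 over all genes. The Ketamine split depended on the scale: it was 3 higher and 3 lower with the length offset, and 3 higher and 0 lower with limma on log2 TPM.

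Genes that make and load acetylcholine were scarce in this tissue, which receives cholinergic axons. Chat, the synthetic enzyme, was at 0.556 TPM in Control, 0.723 in K4 and 0.787 in Ketamine. Slc18a3, the vesicular transporter, was at 0.457, 0.746 and 0.586 TPM, and Slc5a7, the choline transporter, at 1.15, 1.22 and 0.992. None was called by edgeR against Control, and which groups overlapped depended on the scale. Slc18a3 in K4 lay above Control in TPM but not in CPM, and Slc5a7 in Ketamine lay below Control in CPM but not in TPM (log2 difference −0.32, edgeR adjusted p = 0.294). The basal forebrain factors Lhx8, Isl1 and Gbx1 were listed at 0 in all 9 libraries. Of the 11 synthesis and transport genes edgeR called 1, Acly, which supplies cytosolic acetyl-CoA and fell by 0.20 on the log2 scale in Ketamine (adjusted p = 0.0361). That call held in 7 of 19 alternatives, and in 3 of 9 fits leaving out a library, those without Control 2, K4 1 or K4 2.

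Prima1 and Chrna5 had higher means in K4 and lower means in Ketamine than in Control. Prima1, which anchors cholinesterase tetramers in the neuronal membrane, was at 8.60, 8.03 and 6.73 CPM in Control, 11.1, 9.75 and 10.03 with K4, and 7.46, 5.24 and 5.90 with Ketamine. Chrna5, an accessory subunit that joins receptors of Chrna4 and Chrnb2 products in deep cortical layers, was at 6.19, 4.58 and 5.12, 6.98, 7.21 and 5.94, and 4.13, 3.92 and 3.85 CPM. For both genes every K4 library lay above every Ketamine library.

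The K4 against Ketamine log2 difference was 0.73 for Prima1 (0.42 to 1.04, edgeR adjusted p = 0.17) and 0.76 for Chrna5 (0.44 to 1.08, edgeR adjusted p = 0.17). Neither was called by edgeR, and both were called by DESeq2 (adjusted p = 0.0052 and 0.0084). Over 19 alternatives the adjusted p reached 0.762 for each, and without Ketamine 1 Prima1 was called by edgeR (0.88, adjusted p = 0.0458). Against Control, edgeR called Prima1 lower in Ketamine without Ketamine 1 (−0.48, adjusted p = 0.0469) and Chrna5 without Control 2 (−0.51, adjusted p = 0.0351), and neither with all libraries. Summed TPM of 7 deep-layer excitatory neuron markers was 98.4 to 166 in Control, 169 to 184 in K4 and 134 to 145 in Ketamine, and its part in these differences was not tested. Colq, the collagen-like anchor of cholinesterase, had log2 differences of −0.16 and −0.21 against Control in K4 and Ketamine, with edgeR adjusted p of 0.705 and 0.549.

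The remaining nicotinic and muscarinic genes were near the limit of detection. Chrna3 was at 0.699, 0.945 and 1.00 CPM and Chrm5 at 0.265, 0.577 and 0.365 CPM in Control, K4 and Ketamine, with log2 intervals that span 0. Chrnb4 was at or below 0.183 CPM in every library and did not pass the filter. Of 14 other receptor genes 7 were tested, and edgeR called 0 in any comparison.

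Ly6 proteins and chaperones, several of which affect how many nicotinic receptors reach the cell surface, held calls in both drug groups. Ly6e was at 72.2, 73.3 and 79.5 CPM in Control, 94.0, 98.3 and 103 with K4, and 98.1, 111 and 102 with Ketamine, and every drug library exceeded every Control library. It rose by 0.39 in K4 and 0.47 in Ketamine on the log2 scale (edgeR adjusted p = 0.00779 and 0.000921), and both calls held in all 19 alternatives. Ly6h, which limits surface Chrna7 receptors, was at 112, 107 and 122 CPM in Control, 136, 135 and 135 with K4, and 144, 161 and 149 with Ketamine. It rose by 0.25 and 0.41 (edgeR adjusted p = 0.0395 and 0.0016), and these groups too were apart. The Ketamine call of Ly6h held in all 19 alternatives, while its K4 call held in 8 of 19. It was lost with the length offset, with only the compared groups, with both limma fits, and in 7 of 9 fits leaving out a library, all but those without Control 3 or Ketamine 1.

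Other modulators moved less. Tmem35a, the chaperone NACHO needed for Chrna7 assembly, rose by 0.24 in Ketamine (edgeR adjusted p = 0.0379), a call kept in 2 of 9 fits leaving out a library, those without Control 3 or K4 2. Lypd6, a Ly6 protein that binds nicotinic receptors, fell by 0.32 in Ketamine (edgeR adjusted p = 0.0465), a call kept in 3 of 9, those without Control 3, K4 2 or K4 3. Each call held in 8 of 19 alternatives and was lost without Control 2, with the length offset and with both limma fits, among others. The chaperone Ric3 and the receptor brake Lynx1 had log2 differences of 0.04 and 0.05 in K4 and 0.05 and −0.0021 in Ketamine, and neither was called.

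In the 21 genes of muscarinic signalling, edgeR called 1 higher in K4 and 2 higher and 8 lower in Ketamine. Over all genes 2.27% were called higher in K4, and 6.95% higher and 9.75% lower in Ketamine. Kcnq3, a subunit of the M-current that Gq-coupled muscarinic receptors close, fell from 99.5 ± 14.8 CPM in Control to 64.2 ± 7.26 in Ketamine (SD, n = 3; log2 difference −0.63, edgeR adjusted p = 0.0027). Prkcb, a protein kinase C, fell from 443 ± 20.1 to 344 ± 10.9 CPM (−0.36, adjusted p = 0.00175), Itpr1, the inositol trisphosphate receptor, from 885 ± 97.9 to 666 ± 18.4 CPM (−0.41, adjusted p = 0.00481), and Gnaq, the Gq subunit itself, by 0.35 (adjusted p = 0.00874), all by edgeR. In each of these 4 genes every Ketamine library was below every Control library, as in 18.1% of all genes. For Kcnq3 (74.6 to 83.5 CPM), Prkcb (384 to 395) and Itpr1 (687 to 772) every K4 library was below Control too. Over all genes 14.2% had this K4 order, and Gnaq did not. The K4 log2 differences of Kcnq3, Prkcb, Itpr1 and Gnaq were −0.33, −0.18, −0.27 and −0.14. By edgeR none was called with all libraries, and they were called in 3, 2, 2 and 0 of 19 alternatives.

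With the length offset the Ketamine calls of Kcnq3, Prkcb and Gnaq held and that of Itpr1 did not. With limma on log2 TPM none of the 4 was called in Ketamine. Without Ketamine 2 the Gnaq call was lost (edgeR adjusted p = 0.0502). Adcy5, an adenylyl cyclase inhibited through Gi, fell by 0.31 in Ketamine (edgeR adjusted p = 0.0146), a call lost with the length offset, with both limma fits, and without Ketamine 2 or Ketamine 3. Arrb2, which desensitises receptors, rose by 0.24 in K4 and 0.26 in Ketamine (edgeR adjusted p = 0.0371 and 0.0119). Its K4 call was kept in 10 of 19 alternatives, and in 2 of 9 fits leaving out a library, those without Control 2 or Ketamine 1. Its Ketamine call was kept in 17 of 19, all but the length offset and the fit without Ketamine 3.

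For K4 against Ketamine edgeR called 0 of the 50 other cholinergic genes, with 12 at an unadjusted p below 0.05, and DESeq2 called Prima1 and Chrna5. Over all genes edgeR called 0 (0%), with 9.13% at an unadjusted p below 0.05.

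**Figure D4:**
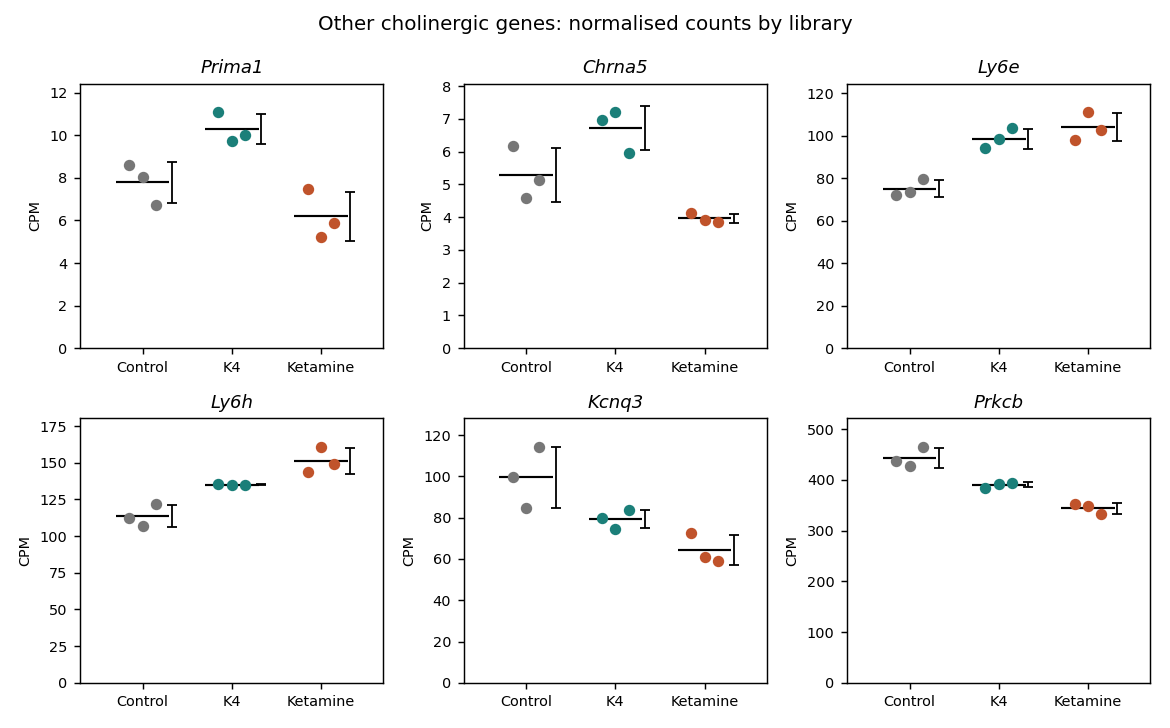
Each panel gives 1 of 6 cholinergic genes outside the set, with CPM on an axis from 0, a point per library, a line at the group mean and a bar of 1 SD on either side (n = 3). Prima1 and Chrna5 are higher in K4 than in Ketamine, Ly6e and Ly6h are higher in both drug groups than in Control, and Kcnq3 and Prkcb are lowest in Ketamine.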

How the data were processed

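Poly(A) RNA libraries from rat medial prefrontal cortex, made with a stranded kit per the labels, were analysed from the authors' deposited files: raw counts per gene for 9 libraries, and per the file headers FPKM and TPM per gene. The submitters' processing notes name bcl2fastq 2.20.0, Trimmomatic, HISAT2 2.1.0, StringTie 2.1.3b and build rn6. The sources used here do not give the counter or its strand setting, so counts of overlapping genes are uncertain.

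Counts were fitted in R 4.3.3 with edgeR 4.0.16 (TMM, filterByExpr with minimum count 10 and minimum total 15, robust quasi-likelihood, all 9 libraries, 3 groups), leaving 18047 genes. Genes were called at 0.05 after Benjamini-Hochberg adjustment across those tested. Intervals cover 95%. The script was tested on simulated data.

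Members and lists were chosen with earlier results of these data known. Named genes are the 9 members, up to 6 called genes per other list by smallest p, a set of 12 fixed names, and the 5 genes nearest Bche, not all of which are reported here. All 183 list entries matched, 3 of them (Tmem35a, Lhfpl3, Slco1a4) by gene ID through RefSeq (GRCr8), which also gave overlaps and promoters.

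Alternatives were other scalings, DESeq2 1.42.0, no filter, no robust estimation, the compared groups only, a replicate block, a length offset, limma 3.58.1 on log2(TPM + 0.1) and log2(TPM + 1), and leaving out each library.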

Additional observations from a re-analysis of the deposited data

How the results depend on the processing

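Of the 9 members, Bche and Chrna4 kept their direction in each comparison under all 19 alternatives, and no called value of any named gene changed sign. The call count over all genes for K4 against Control, 1095 (409 higher, 686 lower), became 1890 with DESeq2, 452 with only the compared groups, 432 with the length offset, and 672 and 641 with limma on log2(TPM + 0.1) and log2(TPM + 1). The split was 527 higher and 563 lower with upper quartile scaling, and 621 and 51 on log2(TPM + 0.1), where the median of all genes lay at 0.17. For Ketamine against Control, 3013 (1254 higher, 1759 lower) became 1398 with the length offset and 1539 (1169 and 370, median 0.12) and 1473 with limma. For K4 against Ketamine, 0 became 70 with DESeq2, 6 without a filter, 27 with only the compared groups, and 2 with either limma fit. Leaving out 1 library gave 174 to 1548, 1177 to 3191 and 0 to 27 calls in these comparisons, the lowest without Control 1 and without Ketamine 2.

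Among other cholinergic genes, the 3 K4 calls became 7 with DESeq2 and 1 with only the compared groups, and 1 to 6 when a library was left out. The 15 Ketamine calls became 9 with only the compared groups, 6 with the length offset, 3 with either limma fit, and 6 to 13 without a library. The 0 between the drugs became 2 with DESeq2, and 0 to 1 without a library.

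Replicate numbers were not taken as pairs, since correlations of same-numbered libraries were positive but weak, 0.00241 to 0.106 over 9 pairs (other pairs −0.157 to 0.0688). In 14 of 18 comparisons a library matched best with its own number, a hint from the data and not from the design. The replicate block gave 1168, 3191 and 1 calls over all genes, and 4, 14 and 0 among other cholinergic genes. Among the 9 members depth limits Bche most, at 33 to 178 counts per library.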
